A study of Mus musculus with 4 samples.

Results

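Leukemia inhibitory factor (LIF) and its relatives of the IL-6 cytokine family were followed in the small intestine (SI) of mice at 1 day post 12 Gy total-body irradiation (TBI). The members are the 10 genes of the deposited count table, out of 56748, whose names are Lif, Il6, Il11, Osm, Lifr, Il6st, Osmr, Il6ra, Stat3 or Socs3. They were chosen for their place in the pathway, with earlier results of these libraries known. Of these 10, 8 had enough counts to be tested, and Il6 and Il11 did not.

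The groups were 2 libraries of WT (p53+/+) and 2 of p53-/- mice, all given 12 Gy TBI from a Cs-137 source and sampled 1 day later. Per the study's methods, mice were 8 to 12 weeks old. The p53-/- line is deficient in every tissue, so that epithelium, stroma and immune cells differ between the groups alike. Each library holds poly-A RNA of whole SI tissue. No unirradiated sample was analysed here, so no value below measures the response to radiation itself. The libraries are called 7 and 8 (WT) and 9 and 10 (p53-/-), after the columns of the table, and these numbers pair no animals.

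LIF, IL-6, IL-11 and oncostatin M are secreted proteins of this family that signal through gp130, a shared receptor chain encoded by Il6st. LIF binds gp130 together with the LIF receptor chain and mouse oncostatin M mainly with its own receptor chain, while IL-6 and IL-11 first bind a receptor of their own. Within the cell the receptors activate JAK kinases and the transcription factor STAT3, and STAT3 induces SOCS3, which binds gp130 and shuts the signal off. In the intestine this pathway is known for supporting epithelial repair and the antimicrobial defence of the epithelium, and Lif is known as a gene that p53 can induce.

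The promoters of Lif and Socs3 are shown because these were the members above the detection floor whose levels differed most between genotypes. Each run covers 250 bases before and 50 bases after a transcription start given by RefSeq, on the strand of the gene, in build GRCm38.p6. The Lif window is chr11:4257318-4257617, plus strand, and the Socs3 window is chr11:117969317-117969616, minus strand. Capitals mark a match to the STAT motif TTCNNNGAA or to the p53 half-site, a 10-base consensus.
Lif: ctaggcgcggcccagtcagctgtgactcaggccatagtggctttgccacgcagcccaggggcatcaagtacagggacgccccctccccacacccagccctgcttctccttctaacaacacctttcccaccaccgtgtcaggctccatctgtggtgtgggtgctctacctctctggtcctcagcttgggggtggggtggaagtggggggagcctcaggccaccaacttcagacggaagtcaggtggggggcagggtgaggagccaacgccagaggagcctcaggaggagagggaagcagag
Socs3: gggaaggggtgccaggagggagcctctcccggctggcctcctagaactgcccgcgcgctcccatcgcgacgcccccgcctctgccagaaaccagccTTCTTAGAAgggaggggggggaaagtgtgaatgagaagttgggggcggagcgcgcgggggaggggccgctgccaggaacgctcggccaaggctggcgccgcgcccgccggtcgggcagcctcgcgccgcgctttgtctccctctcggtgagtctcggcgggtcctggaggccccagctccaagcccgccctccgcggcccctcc
The Socs3 window holds 1 STAT motif, which begins 154 bases before the start, and no p53 half-site. The Lif window holds neither, and sequence outside these windows was not searched, so sites elsewhere in Lif would not be seen. Promoters were matched for 9 of the 10 members (11 windows, Osm not among them). Socs3 was the only one of the 9 with a STAT motif, and Il6 the only one with a p53 half-site, 204 bases before its start. Both motifs read the same on either strand, and they occur in 8.3% and 8.36% of 32841 mouse promoter windows of this length. A match is a description of letters and not a binding site.

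The libraries held between 15005479 and 22173164 counts. Levels are given as CPM, read counts scaled to a common library size with TMM factors. Genotypes were compared by the quasi-likelihood (QL) test of edgeR, with p-values adjusted over all 16094 genes tested. Trp53 itself was at 57.7 and 47.0 CPM in WT and at 19.8 and 22.5 CPM in p53-/- libraries (log2 fold change -1.31; edgeR QL, adjusted p = 0.060). Which exons the remaining reads cover was not analysed here. Bax, Bbc3 and Cdkn1a, direct p53 targets, had log2 fold changes of -2.18, -1.83 and -1.43, and Bax passed the threshold (edgeR QL, adjusted p = 0.0296). Across the table, 79 genes (0.491%) passed an adjusted p of 0.05, with 48 (0.298%) higher and 31 (0.193%) lower in p53-/- mice. At an unadjusted p under 0.05, 10% of genes were higher and 7.92% lower. The study's methods describe its replicates as biological, but the labels do not say how those of a genotype were taken. The p-values measure only the spread between these samples. Of the 10 markers of SI epithelium used to check the tissue, all were detected, and lactase (Lct), with 10 to 16 counts, was the lowest. Library 10 stands apart in B cell markers, whose summed level was 464 CPM against 1.11 to 22.5 CPM in the others, in Xist, with 588 counts against 0 to 4, and in the ribosomal gene Rn18s-rs5, with 4.59% of counts against 0.296% to 0.863%. The study's methods describe gender-matched mice and the labels give no sex. Whether library 10 differs in sex from the other libraries was not tested. Library 7 is lowest in fibroblast and endothelial markers and library 8 highest in smooth muscle markers, as described with the receptors.

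Among the ligands, Lif was the one gene with a clear level in every library. Lif (ENSMUSG00000034394) was at 14.9 and 14.6 CPM in the WT libraries (241 and 225 counts) and at 7.83 and 6.46 CPM in p53-/- libraries (179 and 130 counts). Both WT values lay above both p53-/- values, and the WT libraries lay within 1.02-fold of each other. The mean was 14.7 ± 0.223 CPM in WT and 7.15 ± 0.974 CPM in p53-/- mice (SD, n = 2). The WT level was thus 2.06 times that of p53-/- mice, a log2 fold change of -1.04 (standard error 0.280, 95% interval -1.74 to -0.34). This difference was larger than the spread between replicates (edgeR QL, unadjusted p = 0.0116) and did not pass the threshold over all genes tested (edgeR QL, adjusted p = 0.161). With DESeq2 in place of edgeR it did (adjusted p = 0.0377). Groups that do not overlap, with WT higher, were found for 24.4% of all genes tested, so the order of the 4 values is common in this table. In tissue RNA, fewer cells that express a gene and less RNA per cell cannot be told apart.

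Markers of other cell types differed in the same direction as Lif. Of 6 adipocyte markers, 6 were higher in both WT than in both p53-/- libraries, with summed levels of 37.5 to 63.2 CPM in WT and 4.11 to 6.06 CPM in p53-/- mice, and Plin1 was at 0 counts in both p53-/- libraries. Of 10 epithelial markers, 8 were higher in both WT libraries, with summed levels of 18301 to 24587 CPM in WT and 13668 to 16052 CPM in p53-/- mice. The part of either cell type in the Lif difference was not tested.

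The other ligands were close to the detection floor, set at 3 counts per library. Osm, which encodes oncostatin M, a cytokine made by myeloid cells and T cells, had 0 and 2 counts in the WT libraries and 12 and 11 in the p53-/- libraries. Pooled over libraries and scaled, its level in p53-/- mice was 8.46 times that in WT, with a 95% counting interval of 2.09 to 74.02 that covers counting error only. By an alternative chosen after seeing the data, the ratio was 4.13 without library 7, and at least 2.89-fold higher without library 8, against a floor of 3 counts for library 7. The groups did not overlap, as for 26.4% of all genes in this direction. Osm passed the filter on low counts only through the p53-/- libraries, where it was higher, so its test is not read here. T cell markers were higher in the same libraries. All 8 were above WT in both p53-/- libraries, with summed levels of 7.54 to 13.9 CPM in WT and 65.6 to 128 CPM in p53-/- mice. The same held for 6 of 7 macrophage and monocyte markers, with summed levels of 59.7 to 125 and 172 to 538 CPM. Their part in the Osm counts was not tested.

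Il11, a cytokine of stromal cells in the gut, had 1 and 7 counts in WT and 3 and 6 counts in p53-/- libraries. The groups overlapped, and the ratio of p53-/- to WT was 0.828 with a counting interval of 0.283 to 2.46. Il6 had 2 counts in library 10 and 0 in the other libraries, so no fold is given. A difference in either gene was not detectable at this depth.

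**Figure D1:**
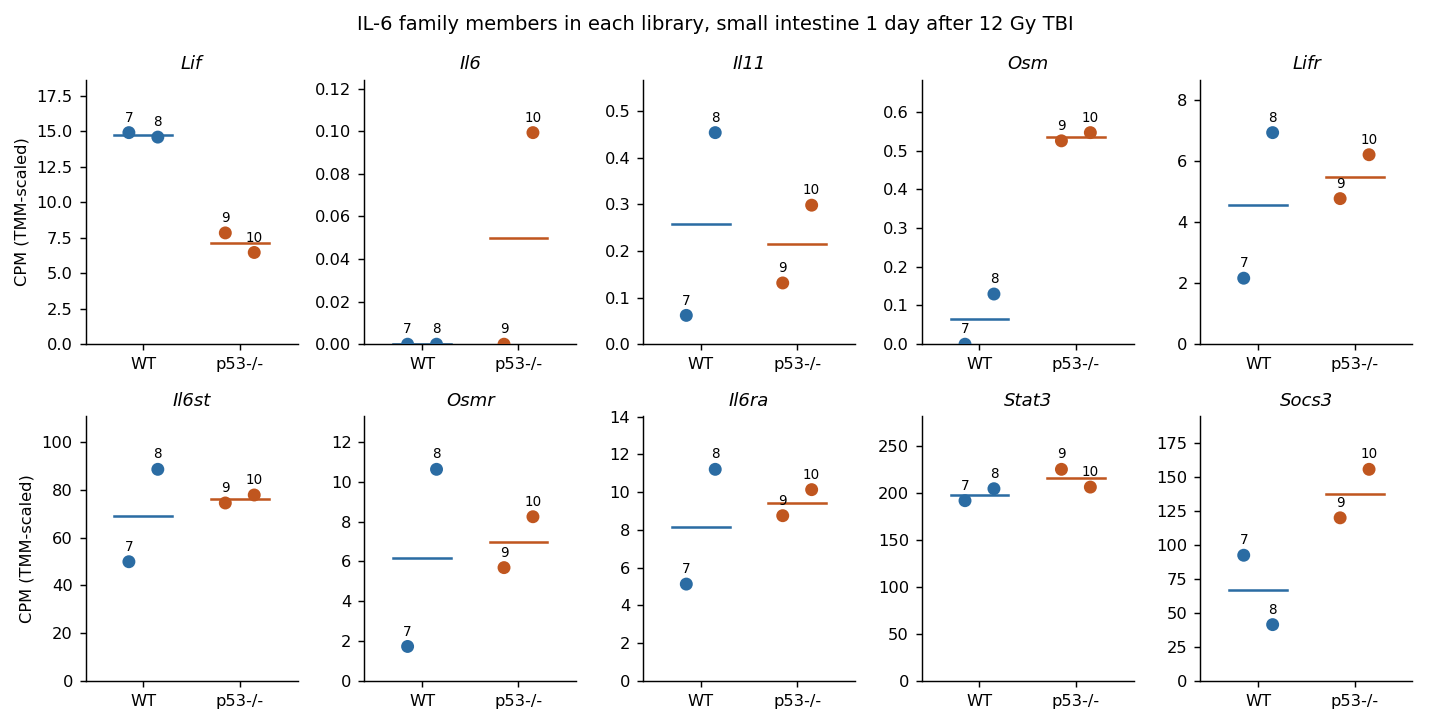
Level of each member in CPM (y axis, from 0, own scale per panel) in the 2 WT libraries (blue, 7 and 8) and the 2 p53-/- libraries (orange, 9 and 10), 1 point per library with the genotype mean as a line. Lif sits at 14.6 to 14.9 CPM in WT and at 6.46 to 7.83 CPM in p53-/- mice, and for the 4 receptor genes library 7 is the lowest point in the panel.

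The receptors gave a different picture, with more distance between the WT libraries than between the genotypes. Il6st, which encodes gp130, was at 49.9 and 88.6 CPM in WT and at 74.5 and 77.9 CPM in p53-/- libraries. Lifr, the chain that binds LIF, was at 2.16 and 6.93 CPM in WT and at 4.77 and 6.21 CPM in p53-/- libraries. Osmr, the chain particular to oncostatin M, was at 1.73 and 10.6 CPM in WT and at 5.69 and 8.25 CPM in p53-/- libraries. For each of these genes both p53-/- values lay between the WT values. The same held for Il6ra, the binding chain of IL-6, at 5.13 and 11.2 CPM in WT and 8.75 and 10.1 CPM in p53-/- libraries.

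The log2 fold changes of the receptors were 0.27 for Lifr (95% interval -1.27 to 1.81), 0.14 for Il6st (-0.58 to 0.86), 0.17 for Osmr (-1.88 to 2.23) and 0.21 for Il6ra (-0.91 to 1.33). Their adjusted p-values lay between 0.856 and 0.941 by edgeR QL. For Lifr the interval spans from 0.415-fold to 3.52-fold of the WT level, and for Osmr from 0.272-fold to 4.68-fold, so that both intervals include a difference as large as that of Lif. For Il6st the interval was narrower, 0.667-fold to 1.81-fold. These estimates depended on which WT library was used. Without library 7 the log2 fold changes were -0.33, -0.21, -0.60 and -0.24, with the opposite sign for each receptor, and without library 8 they were 1.33, 0.60, 1.998 and 0.87. Osmr was also at -0.09 without library 10. None passed the threshold in any of these fits.

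Library 8 exceeded library 7 by 6.14-fold for Osmr, 3.21-fold for Lifr, 2.19-fold for Il6ra and 1.78-fold for Il6st, whereas the median gene had a ratio of 0.946. These ratios were above those of 97.1%, 91.3%, 86.6% and 83.6% of the 15376 genes with over 3 counts in both WT libraries. Lif, with a ratio of 0.979, and Stat3, with 1.07, were near the middle. Stromal markers differed between the same libraries. The summed level was 9.35 times higher in library 8 than in library 7 for 6 smooth muscle markers, 5.83 times for 7 fibroblast markers and 2.87 times for 6 endothelial markers, and every one of these markers was higher in library 8. All 10 epithelial markers were lower there, with a summed ratio of 0.744. The part of stromal tissue in the receptor levels was not tested.

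**Figure D2:**
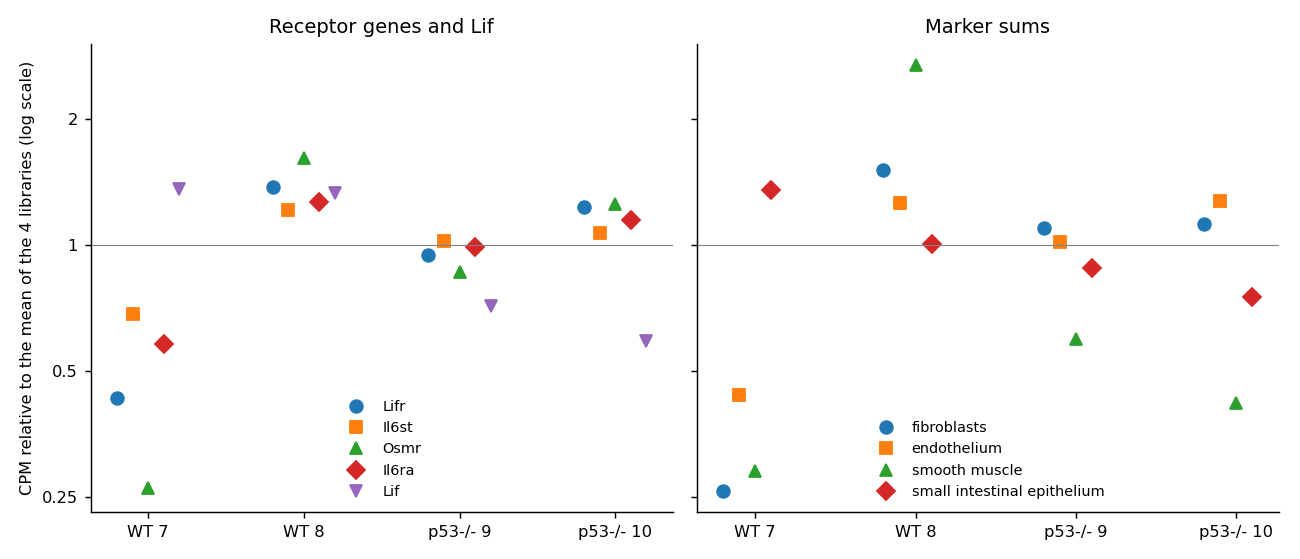
CPM in each library divided by the mean of the 4 libraries (y axis, log scale), for the receptor genes and Lif (left) and for the summed CPM of marker lists (right). In library 7 the receptors and the fibroblast, endothelial and smooth muscle sums are all under 1 while Lif and the epithelial sum are above it, and smooth muscle is 9.35 times higher in library 8 than in library 7.

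Levels of different genes were compared as TPM, which divides counts by gene length and scales each library to a common sum, with lengths from GENCODE M21. In WT mice the order was Socs3 (59.8 ± 26.1 TPM), Stat3 (55.6 ± 8.98), Il6st (17.0 ± 8.51), Lif (9.02 ± 0.916), Il6ra (2.595 ± 1.62), Osmr (1.44 ± 1.54) and Lifr (1.17 ± 0.965), followed by Il11, Osm and Il6 at under 1 TPM (SD, n = 2). Stat3 lay above Il6st, Il6st above Lif, Lif above Il6ra, and Il6ra above both Osmr and Lifr, in each of the 4 libraries. The order of Socs3 and Stat3, and that of Osmr and Lifr, differed between libraries. Over all 4 libraries the ranges of Lif and Il6ra overlapped, as did those of Il6ra, Osmr and Lifr. Il6st thus exceeded the chains it pairs with. Its TPM was 12.2 to 22.4 times that of Lifr, 9.10 to 31.5 times that of Osmr and 5.99 to 7.58 times that of Il6ra. The ratio of Lif to Lifr was 17.1 and 5.21 in WT and 4.07 and 2.58 in p53-/- libraries, with the highest value in library 7, where Lifr was low.

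Downstream of the receptors, Stat3 was at 192 and 205 CPM in WT and 225 and 206 CPM in p53-/- libraries, a log2 fold change of 0.12 with a 95% interval of -0.32 to 0.56. This interval covers 0.803-fold to 1.48-fold of the WT level and is the narrowest among the members. The adjusted p was 0.781 by edgeR QL. Stat3 mRNA does not report the phosphorylation that activates the protein.

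Socs3 (ENSMUSG00000053113), the feedback inhibitor, was at 92.6 and 41.5 CPM in WT and at 120 and 156 CPM in p53-/- libraries. Both p53-/- values lay above both WT values, but the WT values themselves differed by 2.23-fold, in the direction opposite to the receptors. Its library 8 to library 7 ratio of 0.448 was above that of only 1.93% of genes. The log2 fold change was 1.04 (standard error 0.397, 95% interval 0.05 to 2.04). It did not pass the threshold (edgeR QL, unadjusted p = 0.0430, adjusted p = 0.261). Without library 7 the log2 fold change was 1.74, and without library 8 it was 0.57. The same sizes of difference, 2.06-fold for Lif and for Socs3, therefore came with different spreads between replicates.

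**Figure D3:**
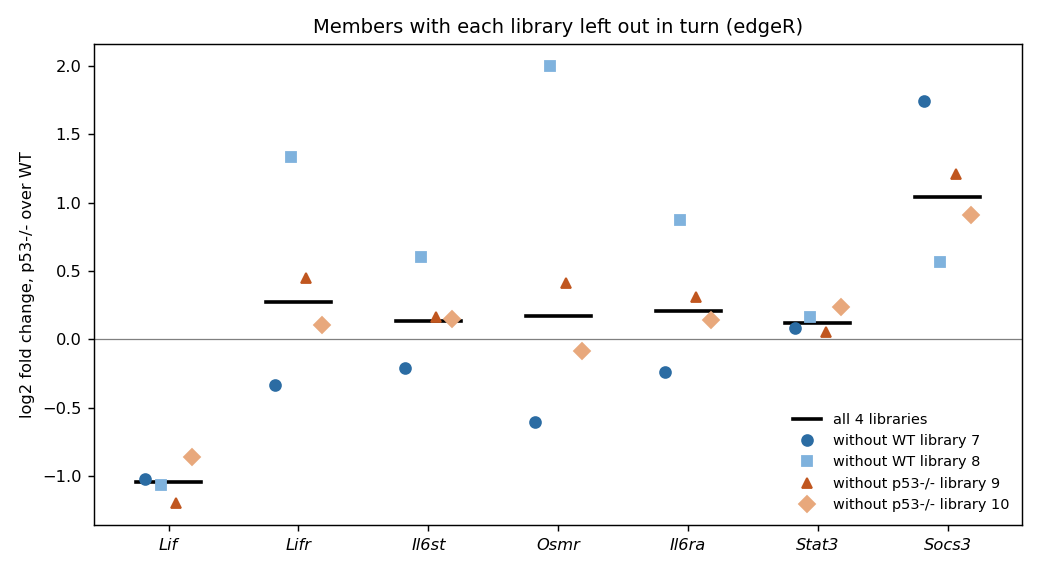
Log2 fold change of p53-/- over WT (y axis) for the 7 tested members with over 3 counts in a library of each genotype, with all 4 libraries (black bar) and without 1 library at a time (symbols). Lif stays between -1.19 and -0.86, while Lifr, Il6st, Osmr and Il6ra lie below 0 without WT library 7 and above 0 without WT library 8.

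In all, 0 of the 8 members tested passed the threshold by edgeR QL, where 0.491% of all genes did. At an unadjusted p under 0.05, Socs3 was higher and Lif was lower, with Osm left out for the reason given above, where 18% of all genes passed in either direction. Of the 8, 3 (Stat3, Socs3 and Osm) were higher in both p53-/- libraries and 1 (Lif) was higher in both WT libraries. Over all genes tested, the genotypes did not overlap for 50.7%. DESeq2 called 1 member, Lif, where it called 5.47% of genes higher and 4.47% lower, and edgeR's likelihood ratio test called 0, where it called 5.18% higher and 2.87% lower. The log2 fold change of Lif was lower than that of all but 4.84% of genes tested, and that of Socs3 was higher than that of 89.0%. The log2 fold changes of Stat3 and the receptors were higher than those of 60.0% to 69.6% of genes.

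**Figure D4:**
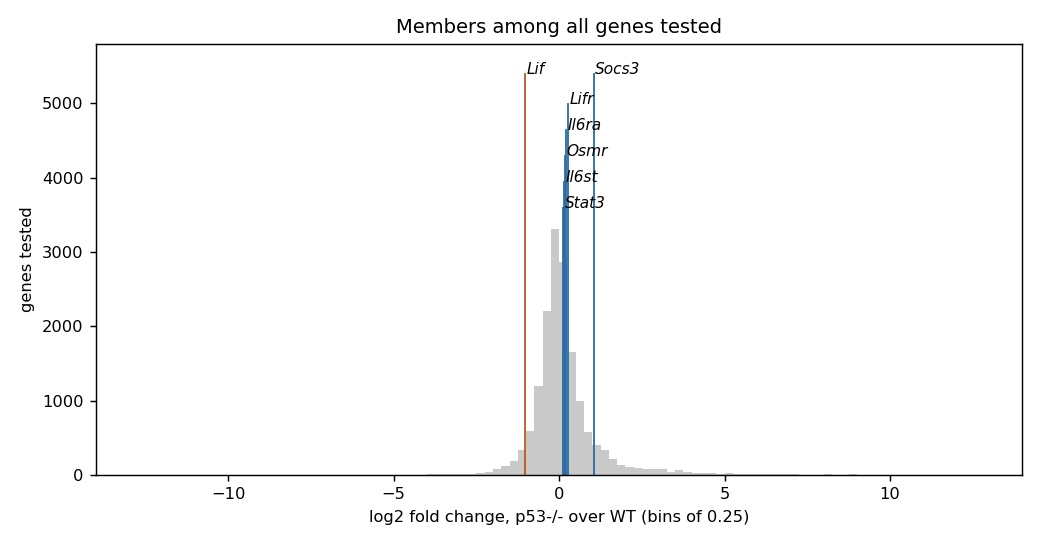
Number of genes tested (y axis) by log2 fold change of p53-/- over WT (x axis, bins of 0.25), with lines for the 7 tested members with over 3 counts in a library of each genotype. Lif lies on the left shoulder at -1.04, Socs3 on the right at 1.04, and Stat3 and the receptors between 0.12 and 0.27.

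The genes whose pattern over the 4 libraries was most like that of Lif were Slc23a2, Nudt4, Inpp5a, Cdkn2b and Arl8a, by the smallest distance between centred log2 CPM profiles among 13293 protein-coding genes. The distances were 0.0693 to 0.110. Slc23a2, a vitamin C transporter, was at 68.5 and 63.4 CPM in WT and 34.7 and 29.8 CPM in p53-/- libraries. Cdkn2b, which encodes the cell cycle inhibitor p15, was at 283 and 274 CPM in WT and 140 and 126 CPM in p53-/- libraries. With 4 libraries many genes share such a pattern, and none of the 5 passed the threshold (adjusted p from 0.0736 to 0.127 by edgeR QL).

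The rest of the pathway was read from 6 lists of 52 genes. Of these, 42 were tested and 0 passed the threshold by edgeR QL, against the 0.491% of all genes given above. At an unadjusted p under 0.05, 10 were higher and 5 lower, where 10% and 7.92% of all genes were. DESeq2 called 8 higher and 5 lower, where it called 9.94% of genes over the whole table, and edgeR's likelihood ratio test called 8 and 3, where it called 5.18% and 2.87% of all genes. The median log2 fold change over the 42 genes was 0.23, against -0.01 for all genes tested.

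Of 8 further ligands and ligand subunits, 3 were tested. Clcf1, a ligand of the ciliary neurotrophic factor receptor, had 1 and 39 counts in WT and 46 and 175 counts in p53-/- libraries, so that the genotypes overlapped (log2 fold change 2.05; edgeR QL, adjusted p = 0.519). The log2 fold change was 0.66 without library 10, 1.08 without library 7 and 6.29 without library 8, and it passed the threshold with no filter on low counts (edgeR QL, adjusted p = 0.00757). Ebi3 was at 0.742 and 0.324 CPM in WT and at 1.05 and 2.33 CPM in p53-/- libraries (log2 fold change 1.65, edgeR QL, adjusted p = 0.319). Il27, which pairs with Ebi3 to form IL-27, had 0 counts in both WT libraries and 9 and 11 counts in the p53-/- libraries, at least 2.45-fold higher against a floor of 3 counts per WT library. Ctf1 (cardiotrophin) was at 2.04 and 1.23 CPM in WT and at 1.36 and 1.89 CPM in p53-/- libraries. Cntf, Ctf2 and Il31 had 0 to 4 counts in each library.

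Among 5 further receptor chains, 3 were tested. Il27ra, the receptor of IL-27 on lymphocytes, was at 0.0618 and 0.972 CPM in WT (1 and 15 counts). In p53-/- libraries it was at 3.85 and 10.4 CPM (88 and 209 counts). Library 7 fell below the filter on low counts, so Il27ra passed it only with the p53-/- libraries, where it was higher. Its test is therefore not read here. The log2 fold change was 3.78 (standard error 1.12), 2.87 without library 7 and 2.92 without library 10. Without library 8 it was 6.70, with the 1 count of library 7 as the only WT value. The T cell and B cell markers were also higher in both p53-/- libraries, with 8 of 8 and 7 of 7 markers, and their part in this value was not tested. Il11ra1, the receptor of IL-11, was at 9.45 and 20.7 CPM in WT and 10.4 and 16.6 CPM in p53-/- libraries, again with library 7 lowest, and its reads could have been split with Il11ra2 (0 to 1 counts). Cntfr had 2 and 26 counts in WT and 15 and 10 in p53-/- libraries. Il31ra had 0 or 1 count in each library.

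Of the 10 kinases, STATs and adaptors, all tested, the median log2 fold change was 0.04. Jak2 was at 211 and 173 CPM in WT and 152 and 115 CPM in p53-/- libraries (log2 fold change -0.52). The adaptor Gab1 had a log2 fold change of -0.52 as well, and neither passed the threshold (edgeR QL, adjusted p = 0.297 and 0.337).

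Of 6 negative regulators, Socs1, a feedback inhibitor of JAK kinases, had the largest difference. It was at 6.18 and 14.1 CPM in WT and at 33.3 and 52.7 CPM in p53-/- libraries (log2 fold change 2.08, standard error 0.455). The adjusted p was 0.119 by edgeR QL and 0.000557 by DESeq2. Without library 8 the log2 fold change was 2.79. Ptpn6, a phosphatase of blood cells, was at 36.5 and 27.3 CPM in WT and at 33.3 and 84.6 CPM in p53-/- libraries, with library 10 alone above WT. Its log2 fold change was 0.89, and 0.12 without library 10. The STAT5 target Cish was at 6.92 and 7.71 CPM in WT and 4.64 and 6.61 CPM in p53-/- libraries.

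The 20 genes widely described as induced by STAT3 included 7 higher and 5 lower at an unadjusted p under 0.05, where 10% and 7.92% of all genes were, and 0 past the adjusted threshold by edgeR QL. The antimicrobial lectins Reg3b and Reg3g were the most abundant. Reg3g was at 1871 and 3352 CPM in WT and 11548 and 13043 CPM in p53-/- libraries, a log2 fold change of 2.24 (adjusted p = 0.113 by edgeR QL and 1.09e-10 by DESeq2). That log2 fold change was 2.71 without library 8, 1.88 without library 7, 2.32 without library 9 and 2.19 without library 10. Reg3b was at 4164 and 5950 CPM in WT and 16682 and 18438 CPM in p53-/- libraries, a log2 fold change of 1.80. Reads of these related paralogs could have been split between them. In the other direction, Hp (haptoglobin) was at 3.21 and 2.53 CPM in WT (52 and 39 counts). In p53-/- libraries it was at 0.394 and 0.646 CPM (9 and 13 counts), a log2 fold change of -2.46. Library 9 fell below the filter on low counts, so Hp passed it only with the WT libraries, where it was higher. Its test is therefore not read here. The adipocyte markers described beside Lif were lower in the same libraries as Hp, which fat tissue also expresses, and their part was not tested.

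**Figure D5:**
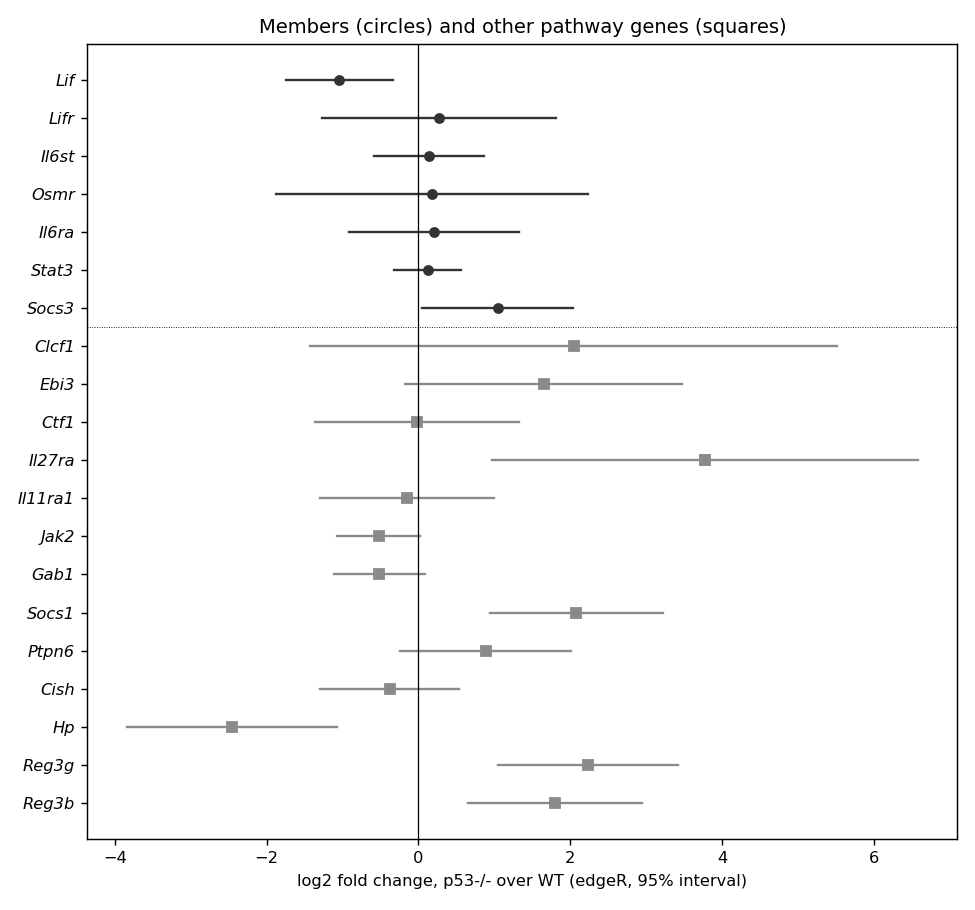
Log2 fold change of p53-/- over WT with its 95% interval from edgeR (x axis) for the 7 tested members with over 3 counts in a library of each genotype (circles) and for 13 other pathway genes named in the text (squares). Intervals of Lif, Socs3, Socs1, Reg3g and Reg3b do not reach 0, and those of the receptors and of Stat3 include it. Those of Il27ra and Hp are not read, because of the filter on low counts.

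Il12b encodes IL12-p40, a cytokine subunit that the study measured in the SI by qPCR and ELISA. Those measurements were made at a later day than the 1 day post-TBI of these libraries. Il12b had 0 and 1 counts in the WT libraries and 11 and 14 counts in the p53-/- libraries, too few to be tested. The ratio was 18.4, with a counting interval of 3.01 to 755 that covers counting error only. Without library 7 the ratio was 8.98, and without library 8 it was at least 3.14-fold higher against the floor. Il12a and Il23a, which encode its partner chains, had 0 to 4 counts in each library. As beside Osm, all 8 T cell markers, 7 of 7 B cell markers and 6 of 7 macrophage and monocyte markers were higher in both p53-/- libraries, and their part in the Il12b and Il27 counts was not tested.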

How the data were processed

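RNA of mouse SI was sequenced by Novogene from 4 poly-A libraries. The authors deposited 1 table of read counts for 56748 genes, with no normalization. The submitters' processing notes name fastp, HISAT2 2.0.5, featureCounts 1.5.0-p3 and DESeq2 1.20.0. The genome build, annotation and strand setting are not given in the sources used here, and the labels allow for libraries with or without strand, so reads of overlapping genes could have been lost or split, and coordinates are printed for RefSeq promoters only. The deposited identifiers matched GENCODE M21 for 91.9% of genes, which gave lengths and biotypes.

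From the counts, libraries were scaled by TMM, low genes removed by filterByExpr, and genotypes compared with the quasi-likelihood test of edgeR 4.0.16 in R 4.3.3, two-sided, with Benjamini-Hochberg adjustment over 16094 genes (threshold 0.05). The standard error is the log2 fold change divided by the root of its F statistic. The study's methods describe its replicates as biological, and neither they nor the labels say how the libraries of a genotype were taken. Both pairs of replicate libraries varied beyond counting error (chi-square per degree of freedom 50.0 and 78.3). P-values rest on n = 2 per genotype. Ratios of low counts carry exact conditional binomial intervals.

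Members and lists were chosen with earlier results of these data known. Genes named are the members, the 3 genes of each list with the largest difference at an average log2 CPM of at least 0, untested ligands and receptors, and the 5 genes nearest to Lif. Genes of these lists that are withheld are not reported here. Il12b and its partners and the markers form fixed lists. The alternatives were RLE, upper-quartile and no scaling, DESeq2 1.42.0, the likelihood ratio test, other filters, antigen receptor segments or the 50 most abundant genes left out, libraries thinned to 15005479 counts, other thresholds, and each library left out. Scripts were checked on simulated counts. The number of value columns left unused was 0.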

Additional observations from a re-analysis of the deposited data

How the results depend on the processing

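Lif kept its direction under all 14 alternatives, with log2 fold changes from -1.19 to -0.86 over the fits that left out 1 library and an adjusted p from 0.0377 (DESeq2, log2 fold change -1.05) to 0.753 (without library 10). The number of members past the threshold was 0 in each direction, against 1 lower with DESeq2 (Lif) and 1 higher with no filter (Socs3). Member calls from fits with a library left out are not read here, since such fits leave a genotype without replicates.

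Against 48 higher and 31 lower genes in the whole table, upper-quartile factors gave 29 and 20, library size only 26 and 20, at least 10 counts in every sample 23 and 19, DESeq2 812 and 663, the likelihood ratio test 833 and 462, no filter 1433 and 761, an adjusted p under 0.01 gave 4 and 2, and under 0.1 gave 238 and 134. With a library left out the counts lay between 0 and 680 higher and between 0 and 344 lower, at 325 and 319 without library 7, 680 and 344 without library 8, 77 and 9 without library 9, and 0 and 0 without library 10. The cause was not tested. Of the pathway lists, 0 genes passed in either direction, against 8 higher and 5 lower with DESeq2, 8 and 3 with the likelihood ratio test, 12 and 3 with no filter, and 0 to 5 higher and 0 to 2 lower with a library left out. The calls of Socs1, Reg3b and Reg3g changed with DESeq2, the likelihood ratio test or no filter. Those of Il27ra and Hp changed as well, but their tests are not read here because of the filter on low counts.

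Log2 fold changes reversed without library 7 for Lifr (-0.33, range up to 1.33 without library 8), Il6st (-0.21, up to 0.60), Osmr (-0.60, up to 1.998) and Il6ra (-0.24, up to 0.87), and for Osmr without library 10 (-0.09). Il11ra1 ranged from -0.61 without library 7 to 0.51 without library 8, and was at 0.14 without library 9. Ctf1, at -0.01, was at 0.0469 with upper-quartile factors, 0.0656 with library size only, 0.0322 with no filter, 0.0337 without the 50 most abundant genes, 0.40 without library 7, -0.34 without library 8 and 0.20 without library 9. No paired analysis was possible because the columns of the table carry no replicate number of the labels. The low counts of Il6, Il11 and Osm limit what these libraries can resolve.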
